A study of Homo sapiens with 24 samples.

Results

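The comparison followed here sets tumors taken 4 h after the last dose of IK-595, when the transcripts that ERK drives were close to their lowest, against tumors taken at the 48 h trough, the end of the dosing interval. The 8 tumors are all those collected at these times, 4 at 4 h and 4 at 48 h, out of 24 tumors sequenced. The times themselves were set against each other for their ERK output. All grew in mice from AsPC-1, a human line derived from pancreatic ductal adenocarcinoma, and IK-595 is described in the labels as a molecular glue that acts on the kinases MEK and RAF. The 4 h mice and the 48 h mice had the same history, 3 oral doses of IK-595 at 6 mg/kg given every other day, and differed in the time between the last dose and collection. Levels in 4 vehicle tumors are given beside them. Those mice received 3 oral doses of 5% DMSO in 95% PEG400 and their tumors were taken 2 h after the last one. All 3 groups share 1 cell line, so the spread between tumors is that between animals and not between patients, and the tumors hold mouse tissue as well as human cells.

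ERK is the last kinase of the RAS-RAF-MEK-ERK chain. It enters the nucleus, switches on transcription factors of the ETS, AP-1 and MYC families, and also switches on its own inhibitors, the DUSP phosphatases and the Sprouty and SPRED proteins, whose short-lived mRNAs therefore follow ERK activity closely. In pancreatic cancer the same chain feeds cyclin D1 and entry into the cell cycle.

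Depth was 18.47, 10.52, 20.6 and 17.36 M counts in tumors 1 to 4 at 4 h and 18.45 to 20.64 M at 48 h, against 19.68 to 20.58 M in vehicle tumors. The second tumor at 4 h had the fewest counts and stood apart on the first principal component of the 8 tumors, at -120.7 against -51.9 to 62.6 for the other 7. The human epithelial markers summed to 9510 to 12200 CPM at 4 h, 12800 to 16300 CPM at 48 h and 9080 to 12400 CPM in vehicle tumors, where CPM is a gene's count scaled by library size. KRT19, a keratin of pancreatic duct cells, was at 1980 to 2380 CPM at 4 h, 2310 to 2980 CPM at 48 h and 2080 to 2680 CPM in vehicle tumors, and no marker of the list was at 0 in a whole group. The labelled epithelial tumor was therefore visible in each group. In bulk tumor RNA, fewer cells of a type and less RNA per cell cannot be told apart.

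Of 18242 genes tested, 1250 were higher at 4 h than at 48 h (6.85%) and 1620 were lower (8.88%), by the quasi-likelihood test of edgeR at an adjusted p under 0.05. The median log2 fold change over all tested genes was 0.021. A fold of at least 2 was also met by 645 of the higher (3.54%) and 582 of the lower genes (3.19%). Without the second tumor at 4 h the counts were 934 higher (5.0%) and 1302 lower (6.97%) of 18673 genes, and 740 of the higher and 1182 of the lower genes passed in both. The count of higher genes was 629 without the second tumor at 48 h and 624 without the fourth. Among genes past the threshold, 409 of the higher (2.24% of those tested) and 957 of the lower (5.25%) also passed on leaving out each of the 8 tumors in turn. Over 4-fold, 270 called genes were higher and 133 were lower. The lower side held the steepest changes of well-expressed genes, and the genes of DNA replication and mitosis lay together on the higher side.

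**Figure D1:**
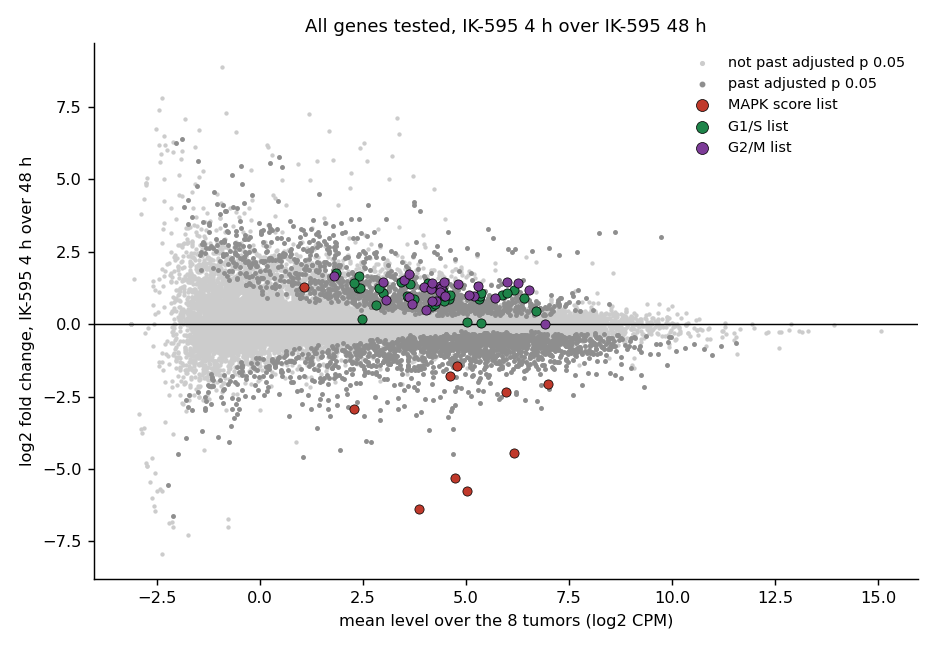
Each point is a gene tested, with its mean level over the 8 tumors on the x axis (log2 CPM) and its log2 fold change, IK-595 4 h over IK-595 48 h, on the y axis. Genes of the MAPK score list lie below 0, down to -6.39, except for 1 gene, and nearly all genes of the G1/S and G2/M lists lie above 0, with medians of 1.0 and 1.21.

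ERK output itself was measured with a published set of 10 genes, the MAPK score, here the mean of their log2 CPM. It was 2.82, 3.57, 2.63 and 2.8 at 4 h and 6.31, 5.96, 6.29 and 6.03 at 48 h, against 6.48 to 6.56 in vehicle tumors. The groups did not overlap, and the highest value at 4 h was in the second tumor. The score differed by -3.19 (SE 0.23) on the log2 scale between 4 h and 48 h. That is given as a description because the times were set against each other for their ERK output. The adjusted p values of score genes are read in the same way. Of the 10 genes, 9 were lower at 4 h and none was higher, beside 8.88% and 6.85% of all tested genes. The median log2 fold change of the 10 was -2.63, and the 9 passed on leaving out each tumor in turn.

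The steepest falls of the score were in 3 of its feedback genes. SPRY4, a Sprouty inhibitor of RAS activation on chromosome 5 (GRCh38, 142310427 to 142326455, minus strand), was at 1.65, 2.39, 1.07 and 1.29 CPM at 4 h and at 136, 110, 161 and 110 CPM at 48 h, against 150 to 169 CPM in vehicle tumors. Every 4 h tumor was far below every 48 h tumor, and the log2 fold change was -6.39 (SE 0.385, edgeR adjusted p = 6.54e-10). DUSP6, the phosphatase that acts on ERK in the cytoplasm (chromosome 12, 89347232 to 89353271, minus strand), was at 3.24, 9.76, 3.43 and 2.84 CPM at 4 h and at 246, 228, 297 and 226 CPM at 48 h, against 229 to 288 CPM in vehicle tumors. Its second 4 h tumor was the highest of the 4 and still far below all 48 h tumors, and the log2 fold change was -5.75 (SE 0.38, adjusted p = 1.36e-09). DUSP4, a nuclear phosphatase of ERK, gave -5.33 (SE 0.36). SPRY2, a further Sprouty protein, gave -1.78 (SE 0.21), with 10.3 to 21.2 CPM at 4 h against 42.6 to 50.2 CPM at 48 h.

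Among the other score genes, EPHA2, a receptor kinase of the ephrin family, was at 14.9, 16.5, 13.8 and 17 CPM at 4 h and at 300, 266, 456 and 324 CPM at 48 h, against 335 to 423 CPM in vehicle tumors. The 4 h and 48 h tumors lay far apart, with a log2 fold change of -4.44 (SE 0.30, edgeR adjusted p = 1.36e-09). PHLDA1, a protein induced by growth factors, gave -2.33 (SE 0.23). It had regained part of its vehicle level at 48 h, with 107 to 214 CPM there, against 256 to 300 CPM in vehicle tumors. The ETS factor ETV5 gave -2.93 (SE 0.33) and was likewise partway back, at 10.9 to 14.9 CPM at 48 h against 24.9 to 29.7 CPM in vehicle tumors. ETV4, from the same subfamily, gave -1.46 (SE 0.18), and its 38.9 to 55.7 CPM at 48 h overlapped the 36.1 to 51.8 CPM of vehicle tumors. CCND1, which encodes cyclin D1, was at 67.7, 68.1, 46.1 and 68.7 CPM at 4 h and at 296, 240, 275 and 233 CPM at 48 h, against 234 to 292 CPM in vehicle tumors. All 4 h tumors were below all 48 h tumors, with a log2 fold change of -2.06 (SE 0.24, adjusted p = 2.36e-06).

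EPHA4, an ephrin receptor, was the score gene that did not pass. It was at 1.23, 15.5, 0.834 and 1.77 CPM at 4 h and at 4.04, 1.28, 1 and 1.48 CPM at 48 h, against 1.4 to 5.57 CPM in vehicle tumors. The second tumor at 4 h alone was high, and the log2 fold change of 1.27 (SE 0.72, edgeR adjusted p = 0.23) was -0.59 without it (adjusted p = 0.551).

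**Figure D2:**
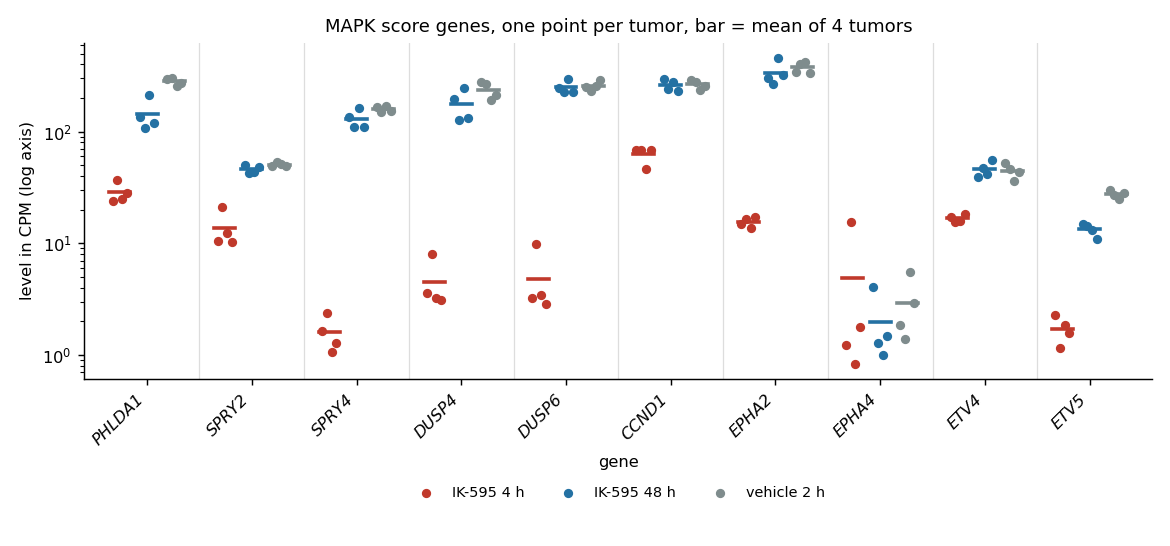
Level in CPM (log axis) of the 10 MAPK score genes in each tumor of the IK-595 4 h, IK-595 48 h and vehicle 2 h groups, with bars at the mean of 4 tumors. For 9 genes, against 11.2% of all tested genes, the 4 h tumors lie below all 48 h tumors, as for SPRY4 with 1.07 to 2.39 against 110 to 161 CPM, and for EPHA4 the second 4 h tumor stands alone at 15.5 CPM.

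Of 16 ERK feedback inhibitors tested, 11 were lower at 4 h and none was higher, beside 8.88% and 6.85% of all tested genes. The median was -1.88, and 10 of the 11 passed on leaving out each tumor in turn. The list shares genes with the MAPK score, DUSP4 and DUSP6 among them, so its counts too are given as a description. SPRED2, which holds RAF inactive, was at 7.76 to 10.1 CPM at 4 h and 48 to 83.4 CPM at 48 h, against 68.8 to 77.8 CPM in vehicle tumors, with a log2 fold change of -3.01 (SE 0.21, edgeR adjusted p = 1.76e-09). SPRY1 gave -2.07 (SE 0.17). Its relative SPRED1 was at 4.27, 26.4, 4.72 and 3.76 CPM at 4 h and at 31.6, 26.4, 25.7 and 23.1 CPM at 48 h. The second 4 h tumor was level with the 48 h tumors and the other 3 were well below, so that the log2 fold change of -1.49 (SE 0.46, adjusted p = 0.0308) became -2.63 without that tumor (adjusted p = 1e-06). Leaving out any other of the 8 tumors ended the call. DUSP1, a stress-induced phosphatase that acts mainly on p38 and JNK, gave -0.67 (SE 0.25) and did not pass, but was lower without the second 4 h tumor (-0.85).

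Immediate early genes are transcribed within minutes of a growth signal, without new protein synthesis. Of 32 tested, 21 were lower at 4 h and none was higher, beside 8.88% and 6.85% of all tested genes. The median was -0.83, and 19 of the 21 passed on leaving out each tumor in turn. MYC, the growth regulator whose mRNA lives for minutes, was at 7.97, 9.28, 5.28 and 7.67 CPM at 4 h and at 44.9, 34.8, 63.5 and 41 CPM at 48 h, against 63.9 to 83.2 CPM in vehicle tumors. The 4 h and 48 h tumors did not overlap, and the log2 fold change was -2.62 (SE 0.27, edgeR adjusted p = 4.24e-07). KLF6, a zinc finger factor, was at 196 to 227 CPM at 4 h and 630 to 781 CPM at 48 h, with 467 to 568 CPM in vehicle tumors. Its 48 h values were above those of all vehicle tumors, and it gave -1.77 (SE 0.13) between 4 h and 48 h. IER3 gave -2.53 (SE 0.23), IER5 gave -1.55 (SE 0.15) and MAFF, a small MAF factor, gave -2.73 (SE 0.28).

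EGR1 and the AP-1 subunits FOS and FOSL1 were added to the named genes after their values were seen. FOSL1 was at 1.39 to 2.01 CPM at 4 h and 12.7 to 44.8 CPM at 48 h, against 40 to 52.9 CPM in vehicle tumors, a log2 fold change of -4.06 (SE 0.50, edgeR adjusted p = 8.84e-06). FOS was at 11.7, 37.5, 11.3 and 6.6 CPM at 4 h and at 87.4, 101, 60.8 and 119 CPM at 48 h, against 29 to 52.3 CPM in vehicle tumors. All 48 h tumors were above all vehicle and all 4 h tumors, and 4 h over 48 h gave -2.48 (SE 0.48, adjusted p = 0.00126). EGR1, a zinc finger factor, was at 0.874, 2.2, 1.07 and 1.99 CPM at 4 h and at 31.1, 17, 33.1 and 17.4 CPM at 48 h, against 32.7 to 68.8 CPM in vehicle tumors. The 4 h and 48 h tumors did not overlap, and the log2 fold change was -4.05 (SE 0.54, adjusted p = 2.06e-05).

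EGR1 is a classic target of ERK through the serum response factor, which binds a CArG box together with ETS partners that ERK phosphorylates. Its promoter is printed because the letters of that box (CC, 6 bases that are each A or T, then GG, searched on both strands) can be seen in it. The sequence is the 250 bases before the start site in RefSeq (GRCh38.p14, chr5:138465229-138465478, plus strand), 5′ to 3′, with the 2 matches in capitals.
EGR1: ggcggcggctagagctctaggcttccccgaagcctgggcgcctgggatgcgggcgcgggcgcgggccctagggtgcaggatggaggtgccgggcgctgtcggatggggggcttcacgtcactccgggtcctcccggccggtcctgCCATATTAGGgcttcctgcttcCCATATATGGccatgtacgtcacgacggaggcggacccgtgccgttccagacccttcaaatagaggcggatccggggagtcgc
A CArG box stood in the promoters of 3 of the 23 immediate early genes that have a promoter sequence in RefSeq (13%), and in 1.5% of the promoters of 12135 tested genes. It stood in 0 of 6 MAPK score genes and 0 of 13 feedback inhibitors. An ETS site (CCGGAAGT) stood in 0 genes of these 3 lists, against 7.5% of tested genes. An AP-1 site (TGA, any base, TCA) stood in 0 of the 23, 0 of the 6 and 1 of the 13, against 6.4%. A match of letters is a description of the window and not evidence of binding.

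The EGFR family ligands went in the direction of ERK output with 1 exception. Of 5 tested, 4 were lower at 4 h and 1 was higher, beside 8.88% and 6.85% of all tested genes. HBEGF, a membrane-bound EGFR ligand, was at 2.06, 3.25, 1.44 and 1.07 CPM at 4 h and at 17.4, 13.7, 21.2 and 16.7 CPM at 48 h, against 10.2 to 14.4 CPM in vehicle tumors. The 4 h tumors did not overlap the 48 h tumors, and the log2 fold change was -3.17 (SE 0.32, edgeR adjusted p = 3.27e-07). AREG, a ligand shed from the membrane, gave -1.83 (SE 0.24), and TGFA gave -0.98 (SE 0.26). EREG gave -0.94 (SE 0.28, adjusted p = 0.0262), and its call was lost without the second tumor at 4 h (adjusted p = 0.0938), the third at 4 h, or the first or the third at 48 h. The ligand that went the other way was NRG1, which binds ERBB3 and ERBB4. It was at 1.65, 11.7, 1.39 and 0.912 CPM at 4 h and at 0.947, 0.532, 0.889 and 0.511 CPM at 48 h. The value of the second 4 h tumor stood far above the rest, and the log2 fold change of 2.40 (SE 0.81, adjusted p = 0.0485) was 0.88 without it (adjusted p = 0.476), and the call was also lost without any single 48 h tumor. Across the MAPK score, feedback, immediate early, ligand and ERK transcription factor lists, NRG1 was the one gene called higher at 4 h.

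Upstream components were read against the 8.88% of all tested genes that were lower and the 6.85% that were higher. Of 30 receptor kinases and adaptors, 7 were lower and 1 was higher (median -0.03), with 4 lower and 3 higher without the second tumor at 4 h. IRS1, the adaptor of the insulin receptors, was at 10.2 to 16.5 CPM at 4 h and 34.8 to 51.7 CPM at 48 h, against 48 to 73.8 CPM in vehicle tumors (log2 fold change -1.74, SE 0.24, edgeR adjusted p = 2.69e-05). Its relative IRS2 gave -1.56 (SE 0.27), the ephrin receptor EPHB4 gave -1.19 (SE 0.13) and MST1R, the receptor of macrophage-stimulating protein, gave -1.06 (SE 0.15). Of 22 genes of the RAS-RAF-MEK-ERK chain, 2 were lower, the scaffold KSR1 at -0.73 (SE 0.14) and RGL2 at -0.45 (SE 0.11). RGL1, an exchange factor of RAL like RGL2, was higher at 1.36 (SE 0.35, adjusted p = 0.0116), and its call was lost without the second 4 h tumor (0.79, adjusted p = 0.0836). Of 20 transcription factors and RSK kinases downstream of ERK, 7 were lower and none was higher (4 lower without the first tumor at 4 h), among them ETV1 at -1.71 (SE 0.26).

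Of all the lists, those of the cell cycle held the most genes that moved opposite to ERK output. Of 31 genes of the G1/S transition and DNA replication, 19 were higher at 4 h and none was lower, with a median log2 fold change of 1.0 and all 31 values above 0. Of 27 genes of G2/M and mitosis, 20 were higher and none was lower, with a median of 1.21 and 26 values above 0. For comparison, 6.85% of all tested genes were higher, and in 7.91% every 4 h tumor was above every 48 h tumor. Among the called genes, 10 of the 19 and 9 of the 20 passed on leaving out each of the 8 tumors in turn. The counts were 17 and 18 without the second tumor at 4 h.

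The number of cell cycle genes called depended on single tumors. The mean log2 CPM of the G2/M list was 5.13, 4.83, 4.97 and 5.42 at 4 h and 4.1, 3.12, 4.61 and 3.69 at 48 h, against 6.12, 5.86, 5.16 and 5.78 in vehicle tumors. The 4 h and 48 h tumors did not overlap, and the second and the fourth tumors at 48 h were lowest. The mean of the G1/S list was 4.75, 4.58, 4.44 and 4.99 at 4 h and 3.93, 3.12, 4.2 and 3.45 at 48 h, against 4.26 to 5.13 in vehicle tumors, with the same order of 48 h tumors. Without the fourth tumor at 4 h, or the second or the fourth at 48 h, 10 G1/S genes were higher in each case, and 11 G2/M genes.

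The MAPK score and the hypoxia list also set the second and the fourth 48 h tumors apart. The score at 48 h was 6.31, 5.96, 6.29 and 6.03, so it was lowest in the 48 h tumors with the lowest cell cycle means. At 4 h it was highest in the second tumor, which had the lowest G2/M mean. It was lowest in the third 4 h tumor, which had the lowest G1/S mean. The mean log2 CPM of the hypoxia list was 5.33, 5.48, 5.88 and 4.9 at 4 h and 5.92, 6.42, 5.89 and 6.4 at 48 h, so the second and the fourth 48 h tumors were highest there. With fibroblast marker content as a covariate, 7 G1/S and 8 G2/M genes were higher and none was lower. The part of ERK output, hypoxia genes and host tissue in the cell cycle difference was not tested.

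The other collection times are given for context, from the earliest to the latest. The MAPK score lay between 6.48 and 6.56 in vehicle tumors. In IK-595 tumors taken at 2 h it lay between 3.98 and 4.40. At 4 h its range was 2.63 to 3.57 and at 8 h it was 2.39 to 3.51. Tumors of 24 h had reached 5.38 to 5.90 and those of 48 h reached 5.96 to 6.31. The G2/M mean was 5.73 ± 0.41 in vehicle tumors (log2 CPM, SD, n = 4 in each group). In IK-595 tumors it was 4.08 ± 0.39 at 2 h and 5.09 ± 0.25 at 4 h. The 8 h tumors gave 4.41 ± 0.73 and the 24 h tumors 4.62 ± 0.35, before 3.88 ± 0.63 at 48 h. The G1/S mean was 4.80 ± 0.38 in vehicle tumors. In IK-595 tumors it was 3.73 ± 0.35 at 2 h and 4.69 ± 0.24 at 4 h. The 8 h tumors gave 3.86 ± 0.59, the 24 h tumors 3.64 ± 0.30 and the 48 h tumors 3.68 ± 0.48. Among IK-595 times, both cell cycle means were highest at 4 h. The G2/M means of single tumors were 4.83, 4.9, 3.33 and 4.59 at 8 h, which overlapped the 4.83 to 5.42 at 4 h. Those of the G1/S list were 3.0 to 4.32 at 8 h against 4.44 to 4.99 at 4 h. No test was run on these other times.

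**Figure D3:**
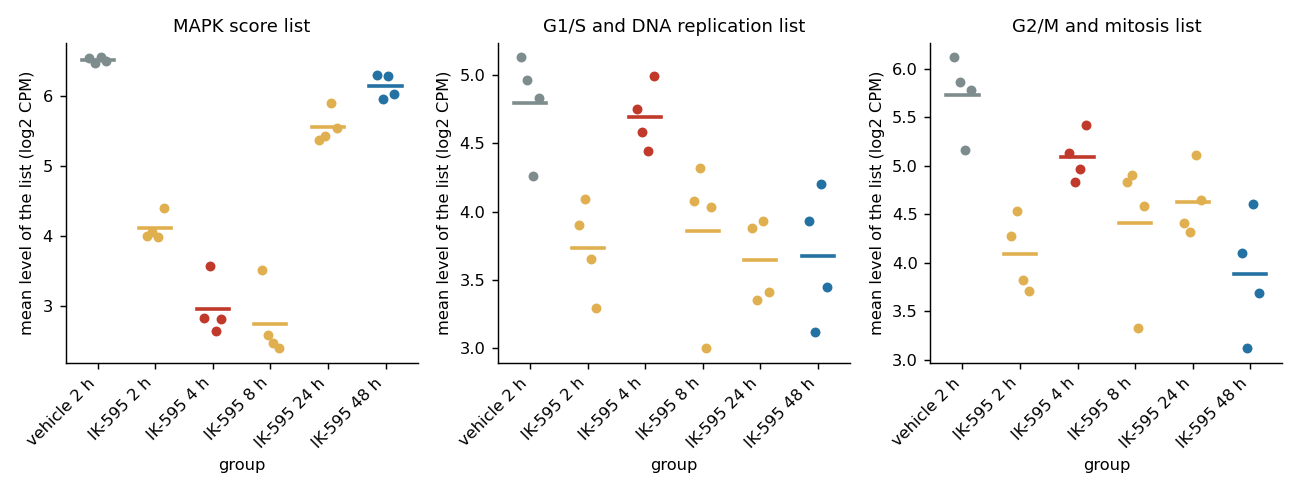
Mean log2 CPM of the MAPK score, G1/S and G2/M lists in every tumor, in order of time with vehicle first, and bars at the mean of 4 tumors. The MAPK score is 2.63 to 3.57 at 4 h against 5.96 to 6.31 at 48 h, and the G2/M mean is 4.83 to 5.42 at 4 h against 3.12 to 4.61 at 48 h.

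Genes of DNA synthesis showed the shift in single values. RFC4, a subunit of the clamp loader of the replication fork, was at 19.2, 16.5, 16.3 and 20.6 CPM at 4 h and at 10.8, 8.19, 10.1 and 10.3 CPM at 48 h, against 14.2 to 21.8 CPM in vehicle tumors. No 4 h tumor overlapped a 48 h tumor, and the log2 fold change was 0.88 (SE 0.18, edgeR adjusted p = 0.00175). GINS1, a subunit of the replicative helicase complex, gave 1.39 (SE 0.32). CCNE2, a cyclin of the G1/S transition, gave 1.06 (SE 0.22). Outside the list, DTL, which marks the licensing factor CDT1 for destruction in S phase, gave 1.74 (SE 0.47, adjusted p = 0.015). Its call was lost without the fourth tumor at 4 h, or the second or the fourth at 48 h, with adjusted p up to 0.0588. RAD54B, a protein of recombination repair, gave 1.67 (SE 0.19), with 20.3 to 33.4 CPM at 4 h and 7.34 to 11.4 CPM at 48 h.

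E2F2, a transcription factor of the same step that the E2F family itself controls, was at 7.1, 4.59, 5.23 and 9.44 CPM at 4 h and at 2.24, 1.22, 2.56 and 1.82 CPM at 48 h, against 2.44 to 5.91 CPM in vehicle tumors. All 4 h tumors were above all 48 h tumors, with a log2 fold change of 1.75 (SE 0.41, edgeR adjusted p = 0.00486). Its promoter is shown for its match to the E2F site, TTTCCCGC or TTTGGCGC on either strand. The sequence is the 250 bases before the start in RefSeq (GRCh38.p14, chr1:23531234-23531483, minus strand), 5′ to 3′, with the match in capitals.
E2F2: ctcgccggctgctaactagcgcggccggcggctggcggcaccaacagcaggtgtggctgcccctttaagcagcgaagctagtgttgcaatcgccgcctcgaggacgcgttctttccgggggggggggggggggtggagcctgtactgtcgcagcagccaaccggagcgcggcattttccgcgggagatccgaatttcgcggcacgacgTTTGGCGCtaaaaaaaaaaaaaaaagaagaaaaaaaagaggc
Such a site stood in 11 of the 26 G1/S genes with a promoter in RefSeq (42.3%), in 1 of 21 G2/M genes (4.8%) and in 3.6% of promoters of all tested genes.

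Genes of mitosis followed the same pattern. KIF20A, a kinesin of cell division, was at 21.6, 19.5, 21.4 and 30.2 CPM at 4 h and at 8.72, 3.72, 9.73 and 5.51 CPM at 48 h, against 19.6 to 38.7 CPM in vehicle tumors. The 4 h tumors were all above the 48 h tumors, and the log2 fold change was 1.74 (SE 0.33, edgeR adjusted p = 0.001). NDC80, which ties the kinetochore to microtubules, gave 1.72 (SE 0.34). The spindle checkpoint kinases BUB1 and BUB1B gave 1.3 (SE 0.28) and 1.51 (SE 0.34). KIF11, the motor that pushes the spindle poles apart, was at 44.5, 43, 42.7 and 58.8 CPM at 4 h and at 19.6, 11.6, 29.2 and 12.3 CPM at 48 h, against 46.5 to 82.2 CPM in vehicle tumors. It did not overlap between 4 h and 48 h and gave 1.38 (SE 0.29, adjusted p = 0.00264). PLK1, a kinase of mitotic entry, was at 28.1, 36, 25 and 39.6 CPM at 4 h and at 15.1, 13.7, 21.5 and 15.3 CPM at 48 h, against 26.6 to 57.4 CPM in vehicle tumors, a log2 fold change of 0.97 (SE 0.24, adjusted p = 0.00877). PLK1 was chosen after its values were seen.

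Many mitotic promoters carry CCAAT boxes, read by NF-Y, and a cell cycle homology region (CHR, TTTGAA), read by the MuvB complexes. The promoters of PLK1 and KIF11 are shown because both motifs can be seen side by side. Each is the 250 bases before the start in RefSeq on GRCh38.p14, 5′ to 3′, PLK1 at chr16:23678639-23678888 and KIF11 at chr10:92592880-92593129, both on the plus strand. Capitals mark 1 CCAAT box and 1 CHR in each, on either strand, and the marked motifs do not overlap.
PLK1: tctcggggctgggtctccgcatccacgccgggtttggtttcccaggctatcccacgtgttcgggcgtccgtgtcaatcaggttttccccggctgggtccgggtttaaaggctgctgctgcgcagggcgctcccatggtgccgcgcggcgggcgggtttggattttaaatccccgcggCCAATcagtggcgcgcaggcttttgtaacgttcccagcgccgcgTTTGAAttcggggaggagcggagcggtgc
KIF11: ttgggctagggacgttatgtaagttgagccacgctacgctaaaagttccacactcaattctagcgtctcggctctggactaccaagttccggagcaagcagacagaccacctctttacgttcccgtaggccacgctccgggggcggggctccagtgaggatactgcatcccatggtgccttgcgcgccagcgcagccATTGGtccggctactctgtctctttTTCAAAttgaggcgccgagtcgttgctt
A CCAAT box stood in 18 of 21 G2/M genes with a promoter in RefSeq (85.7%), in 17 of 26 G1/S genes (65.4%) and in 40.6% of all tested genes with one. A CHR stood in 12 of the 21 G2/M genes (57.1%), in 2 of the 26 G1/S genes (7.7%) and in 12.3% of all tested genes. Among the 6 MAPK score genes with a promoter in RefSeq, 2 held a CCAAT box and 1 held a CHR.

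**Figure D4:**
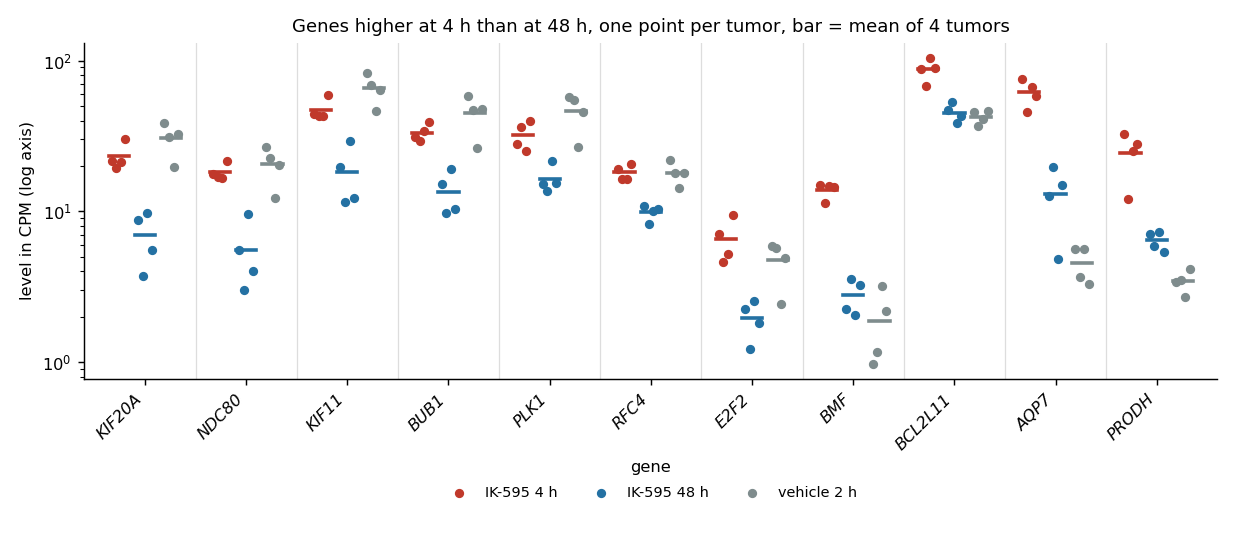
Level in CPM (log axis) of 11 genes higher at 4 h than at 48 h in each tumor, with bars at the mean of 4 tumors and vehicle tumors at the right of each gene. For the 7 cell cycle genes the 4 h tumors overlap the vehicle tumors (KIF11, 42.7 to 58.8 CPM at 4 h against 46.5 to 82.2 CPM in vehicle tumors), whereas for BMF, BCL2L11, AQP7 and PRODH they lie above them.

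The brakes on the cycle divided. CDKN1A, the CDK inhibitor p21, was at 34.5, 39.2, 28.6 and 26.9 CPM at 4 h and at 150, 171, 197 and 171 CPM at 48 h, against 113 to 183 CPM in vehicle tumors. The 4 h and 48 h tumors lay apart by a wide margin, with a log2 fold change of -2.42 (SE 0.26, edgeR adjusted p = 1.07e-06). CDKN2C, the inhibitor p18 of CDK4 and CDK6, went the other way at 1.61 (SE 0.36, adjusted p = 0.00386), with 16.8, 38.3, 14.9 and 18.8 CPM at 4 h and 6.78, 4.89, 11 and 6.31 CPM at 48 h. CDKN1C, the inhibitor p57, gave 1.49 (SE 0.37) at levels of 1.85 to 3.92 CPM at 4 h and 0.499 to 1.19 CPM at 48 h. For comparison with the list counts, 6.85% of all tested genes were higher and 8.88% lower. Over the 16 G1 cyclins and CDK inhibitors 4 were higher and 3 lower. In that list 2 were higher without the second 4 h tumor or without the first, second or the fourth 48 h tumor. Of 19 p53 targets, 4 were higher and 4 lower, and the lower ones included CDKN1A, AEN at -1.58 (SE 0.26), the stress cytokine GDF15 at -1.42 (SE 0.32) and the death receptor TNFRSF10B at -1.24 (SE 0.12). The higher p53 targets numbered 2 without the second 4 h tumor or the fourth 48 h tumor.

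Regulators of apoptosis moved in both directions. BMF, a BH3-only protein that binds and blocks the survival members of the BCL2 family, was at 15, 11.3, 14.7 and 14.6 CPM at 4 h and at 2.24, 3.56, 2.06 and 3.24 CPM at 48 h, against 0.977 to 3.19 CPM in vehicle tumors. The 4 h tumors stood above all others, with a log2 fold change of 2.33 (SE 0.34, edgeR adjusted p = 4.65e-05). BCL2L11, the BH3-only protein BIM that ERK marks for destruction, was at 88, 68.1, 104 and 89.6 CPM at 4 h and at 46.7, 52.9, 38.3 and 42.8 CPM at 48 h, against 36.6 to 46 CPM in vehicle tumors. It did not overlap between 4 h and 48 h and gave 0.95 (SE 0.18, adjusted p = 0.000866). BCL2L1, the survival protein BCL-XL, was at 53.5, 63.8, 62.1 and 61.1 CPM at 4 h and at 290, 248, 314 and 295 CPM at 48 h, against 253 to 281 CPM in vehicle tumors. That is a log2 fold change of -2.25 (SE 0.17, adjusted p = 5.69e-09). MCL1, a further survival protein, gave -0.65 (SE 0.17), and BAK1, a pore former of the mitochondrial membrane, gave -0.76 (SE 0.17). In all, 2 of 14 BCL2 family genes were higher and 5 lower, with 3 lower without the first or second tumor at 4 h or the third at 48 h. Among all tested genes 6.85% were higher and 8.88% lower.

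Outside the cell cycle, AQP7 and PRODH were among the largest rises of well-expressed genes. AQP7, a channel for water and glycerol, was at 75.5, 45.4, 66.9 and 57.9 CPM at 4 h and at 12.7, 19.7, 4.84 and 14.9 CPM at 48 h, against 3.31 to 5.62 CPM in vehicle tumors. All 4 h tumors were above all 48 h tumors, and the log2 fold change was 2.24 (SE 0.30, edgeR adjusted p = 1.64e-05). PRODH, the first enzyme of proline breakdown, was at 32.6, 12.1, 25.2 and 27.9 CPM at 4 h and at 7.08, 5.9, 7.34 and 5.34 CPM at 48 h, against 2.69 to 4.15 CPM in vehicle tumors. The second 4 h tumor was lowest and still above the 48 h tumors, and the log2 fold change was 1.93 (SE 0.25, adjusted p = 8.17e-06). Both genes have pseudogene copies that may share reads. CCT8P1, itself a pseudogene of the chaperonin gene CCT8 and thus less certain, gave 1.76 (SE 0.21). ACADM, the medium-chain enzyme of fatty acid oxidation, gave 1.14 (SE 0.19). It was the one higher gene of 19 tested for lipid oxidation and PPAR targets, of which 4 were lower. Among all tested genes 6.85% were higher and 8.88% lower.

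HMOX1, which breaks down heme, was at 36.5, 43.8, 35.5 and 34.6 CPM at 4 h and at 13.8, 21.7, 13.1 and 22.2 CPM at 48 h, against 7.07 to 8.66 CPM in vehicle tumors. The 3 groups did not overlap, and the log2 fold change between 4 h and 48 h was 1.09 (SE 0.23, edgeR adjusted p = 0.00216). It belongs to the NRF2 antioxidant list, of which 6 of 20 were higher and 2 lower (median 0.22), with 3 higher without the second 48 h tumor. Among all tested genes 6.85% were higher and 8.88% lower. The aldo-keto reductases AKR1C3 at 1.17 (SE 0.19) and AKR1C2 at 1.29 (SE 0.22) were also higher, though these near-identical genes share reads. In the same list SLC7A11, the cystine carrier, was lower, at 9, 8.42, 11.5 and 11.7 CPM at 4 h and 75.1, 58.5, 86.7 and 63.7 CPM at 48 h, against 72.6 to 107 CPM in vehicle tumors. The 4 h and 48 h tumors were widely separate, with a log2 fold change of -2.80 (SE 0.25, adjusted p = 4.17e-08). OSGIN1, a further gene of the list, gave -1.32 (SE 0.20).

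Further genes opposite to ERK output came from other lists. NUAK2, a kinase induced by YAP, gave 1.53 (SE 0.24, edgeR adjusted p = 8.14e-05), with 4.79 to 7.99 CPM at 4 h and 1.65 to 2.79 CPM at 48 h. PDCD4, an inhibitor of translation, was at 203 to 234 CPM at 4 h and 94.4 to 131 CPM at 48 h, against 74.8 to 131 CPM in vehicle tumors, and gave 0.90 (SE 0.20). IFIT2, an interferon-induced protein, gave 1.06 (SE 0.24). Its list of 32 interferon-stimulated genes had 2 higher and 4 lower (median -0.09), beside 6.85% and 8.88% of all tested genes. The lower ones were OAS1 at -0.78 (SE 0.14), ISG20 at -0.77 (SE 0.19), IRF7 at -0.93 (SE 0.24) and IRF9 at -0.52 (SE 0.15). The call of IRF7 was lost without the fourth 48 h tumor, and that of IRF9 without it or without the second or the fourth 4 h tumor. The higher count was 3 without the second 4 h tumor and 1 without any one of the other tumors but the third at 48 h, and the lower count was 2 without the fourth 48 h tumor. Of the remaining large rises, KLHL4 gave 1.91 (SE 0.46), FAM111B gave 1.83 (SE 0.34) and NREP gave 2.34 (SE 0.42). TNNI1, the slow troponin I of skeletal muscle, gave 1.71 (SE 0.37) and is read with the muscle markers given below.

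On the side that followed ERK output, the largest falls beyond the score genes were spread over genes of several roles. KIAA0040 was at 4.78, 6.99, 6.02 and 4.45 CPM at 4 h and at 141, 81.6, 180 and 92 CPM at 48 h, against 173 to 232 CPM in vehicle tumors. The 4 h tumors did not overlap the 48 h tumors, and the log2 fold change was -4.49 (SE 0.33, edgeR adjusted p = 3.81e-09). CDC42EP2, an effector of the small GTPase CDC42, gave -3.67 (SE 0.25), with 3.86 to 6.68 CPM at 4 h and 53.7 to 68.6 CPM at 48 h. TNS4, an adaptor of focal adhesions, gave -3.62 (SE 0.42), and SHB, an SH2 adaptor of receptor kinases, gave -3.03 (SE 0.19, adjusted p = 6.54e-10). MYEOV gave -3.21 (SE 0.26), HS3ST1, which sulfates heparan sulfate, gave -3.14 (SE 0.29), and the kinase WNK4 gave -2.93 (SE 0.33).

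Secreted and surface proteins were among the lower genes. LIF, a cytokine of the IL-6 family that pancreatic tumors release, was at 46, 57.3, 32.4 and 35.6 CPM at 4 h and at 276, 250, 281 and 275 CPM at 48 h, against 178 to 223 CPM in vehicle tumors. The 48 h tumors stood above all vehicle and all 4 h tumors, and 4 h over 48 h gave -2.66 (SE 0.18, edgeR adjusted p = 1.36e-09). IL1B gave -4.33 (SE 0.51) and IL1A gave -2.92 (SE 0.35), both interleukin-1 cytokines, with IL1B at 0.268 to 1.44 CPM at 4 h and 15.1 to 19.7 CPM at 48 h. For comparison, 8.88% of all tested genes were lower and 6.85% higher. Of 19 cytokines and chemokines 6 were lower and 2 higher, with none higher without the fourth 4 h tumor or the first or second 48 h tumor. Of 25 protease and invasion genes 7 were lower and none higher, 6 of them on leaving out each tumor in turn. They included PLAUR, the urokinase receptor, at -1.34 (SE 0.15), and the integrin chains ITGA2 at -1.72 (SE 0.35) and ITGB4 at -0.92 (SE 0.16).

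Junction and state genes gave a mixed list. SNAI2, a repressor that drives loss of epithelial traits, gave -2.05 (SE 0.24), with 6.01 to 15.1 CPM at 4 h and 36.5 to 40.2 CPM at 48 h. CLDN4, a tight junction protein of epithelia, was at 313, 325, 395 and 323 CPM at 4 h and at 815, 1340, 978 and 1430 CPM at 48 h, against 400 to 490 CPM in vehicle tumors. Its 48 h values were above all others, with a log2 fold change of -1.75 (SE 0.25, edgeR adjusted p = 3.25e-05). Among all tested genes 8.88% were lower and 6.85% higher. Of the 23 genes of epithelial and mesenchymal states 7 were lower and 3 higher. The lower count was 4 without the second tumor at 4 h or the second at 48 h. The higher genes numbered 0 without the first or the second 48 h tumor, and 1 without the second 4 h tumor or the fourth 48 h tumor.

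Lists of ribosome production, amino acid supply and glycolysis had more lower than higher genes. Among all tested genes 8.88% were lower and 6.85% higher. Of 28 genes in the list of MYC-linked ribosome production 10 were lower and none higher (median -0.35). The list holds MYC itself, which is among the lower genes and was counted with the immediate early genes too. Also lower were PPAN at -1.12 (SE 0.21) and RRS1 at -1.30 (SE 0.26), both needed to build the large ribosomal subunit. The RNA helicase DDX21 gave -0.95 (SE 0.20). Of 24 genes of ATF4 and amino acid supply 8 were lower and 2 higher (median -0.41). CHAC1, which degrades glutathione, was at 3.06 to 5.56 CPM at 4 h and 17.2 to 49.6 CPM at 48 h, against 7.52 to 19.2 CPM in vehicle tumors (log2 fold change -2.84, SE 0.32, edgeR adjusted p = 1.74e-06). TRIB3, a pseudokinase induced by ATF4, gave -2.26 (SE 0.29), and DDIT4, an inhibitor of mTORC1, gave -1.17 (SE 0.18).

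SLC2A1, the glucose carrier GLUT1, was at 239, 369, 458 and 187 CPM at 4 h and at 1220, 1490, 1380 and 1490 CPM at 48 h, against 682 to 1310 CPM in vehicle tumors. The 4 h and 48 h tumors did not overlap, with a log2 fold change of -2.15 (SE 0.31, edgeR adjusted p = 4.69e-05). It leads the glycolysis list, of which 7 of 20 were lower and none higher (median -0.51), with 4 lower without the fourth 48 h tumor. Among all tested genes 8.88% were lower. The lactate exporter SLC16A3 gave -1.30 (SE 0.21) and the phosphofructokinases PFKL and PFKP gave -0.73 (SE 0.18) and -0.69 (SE 0.17). Of 18 hypoxia genes 4 were lower (median -0.68), with 2 lower without the second 4 h tumor, 7 without the third, 2 without the fourth and 1 without the fourth 48 h tumor. With fibroblast marker content as a covariate, 3 glycolysis and 1 hypoxia gene were lower, and PFKL (adjusted p = 0.0685) and PFKP (adjusted p = 0.0512) were not called.

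The molecular clock was read with care, since the labels give no hour of the day. NPAS2, a partner of BMAL1, was at 30 to 37.4 CPM at 4 h and 86.7 to 115 CPM at 48 h, against 112 to 127 CPM in vehicle tumors, a log2 fold change of -1.53 (SE 0.15, edgeR adjusted p = 3.08e-07). BHLHE40, a clock repressor that growth signals and low oxygen also induce, gave -1.35 (SE 0.23). For comparison, 8.88% of all tested genes were lower and 6.85% higher. Of 19 clock genes 4 were lower and 2 higher. The lower count was 2 without the third or the fourth 4 h tumor, and none was higher without the second 48 h tumor. Of 16 genes of MHC class I and peptide loading 4 were lower and 1 was higher. None was lower without the second 4 h tumor or without the fourth 48 h tumor, and 1 was without the first or the fourth 4 h tumor or the second 48 h tumor. The higher gene, NLRC5, an activator of MHC class I transcription, gave 0.88 (SE 0.24, edgeR adjusted p = 0.0145) and 1.16 without the second 4 h tumor (adjusted p = 8.79e-05). Its call was lost without the fourth 4 h tumor or the fourth 48 h tumor. None of 33 lysosome and autophagy genes passed in edgeR, where 5 had an unadjusted p under 0.05, and 2 were higher by DESeq2. In edgeR 2 were higher without the second 4 h tumor and 1 without the third 48 h tumor. With only the 8 tumors fitted 1 was lower. None of 13 mitochondrially encoded mRNAs passed in edgeR, where 0 had an unadjusted p under 0.05, and none passed by DESeq2.

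Between 4 h and 48 h the summed host markers overlapped for fibroblasts, endothelium and myeloid cells, and did not overlap for skeletal muscle. The 19 fibroblast and pericyte markers summed to 2680, 36500, 1380 and 4030 CPM at 4 h and to 1530, 1380, 2150 and 2490 CPM at 48 h, against 1560 to 3000 CPM in vehicle tumors. The second 4 h tumor was far above every other tumor and the groups overlapped otherwise. Of the 19 markers 10 were higher at 4 h (median 2.38), beside 6.85% of all tested genes. None was higher without the second 4 h tumor, where the median was 0.71. The count was also 0 without the second 48 h tumor, 1 without the first or the fourth and 5 without the third. COL1A2, a chain of type I collagen, gave 3.18 (SE 0.90, edgeR adjusted p = 0.0216) and 0.64 without the second 4 h tumor (adjusted p = 0.512), and its call was also lost without the first or second 48 h tumor.

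ASPN, a small proteoglycan of fibroblasts and the largest rise by the naming rule, was at 23.2, 334, 12.9 and 20.8 CPM at 4 h and at 5.23, 2.76, 11.4 and 6.53 CPM at 48 h. The second 4 h tumor held most of its signal, and the log2 fold change of 3.91 (SE 0.87, edgeR adjusted p = 0.00479) was 1.57 without it (adjusted p = 0.0407). The skeletal muscle markers summed to 403, 198, 266 and 3630 CPM at 4 h and to 40.6, 32.9, 13.5 and 14.9 CPM at 48 h, against 57.3 to 698 CPM in vehicle tumors. Every 4 h tumor was above every 48 h tumor, yet 1 of the 14 markers was called higher, beside 6.85% of all tested genes. That marker was the myosin chain MYH7 at 5.56 (SE 1.70, adjusted p = 0.0319). It did not pass without the second 4 h tumor (5.27, adjusted p = 0.0569), or without the second, the third or the fourth 48 h tumor. The count of muscle markers called depended on the fit, with a median log2 fold change of 5.59 in the main fit. DESeq2 called 12 of the 14 higher (2012 of 18242 genes tested). With only the 8 tumors fitted, edgeR called 10 (645 of 16295). The endothelial markers summed to 29.6, 147, 15.1 and 37.2 CPM at 4 h and to 19.6 to 33.1 CPM at 48 h, and the myeloid markers to 111 to 210 CPM at 4 h and 121 to 168 CPM at 48 h. Lymphocyte markers summed to at most 1.13 CPM at 4 h and 1.01 CPM at 48 h.

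**Figure D5:**
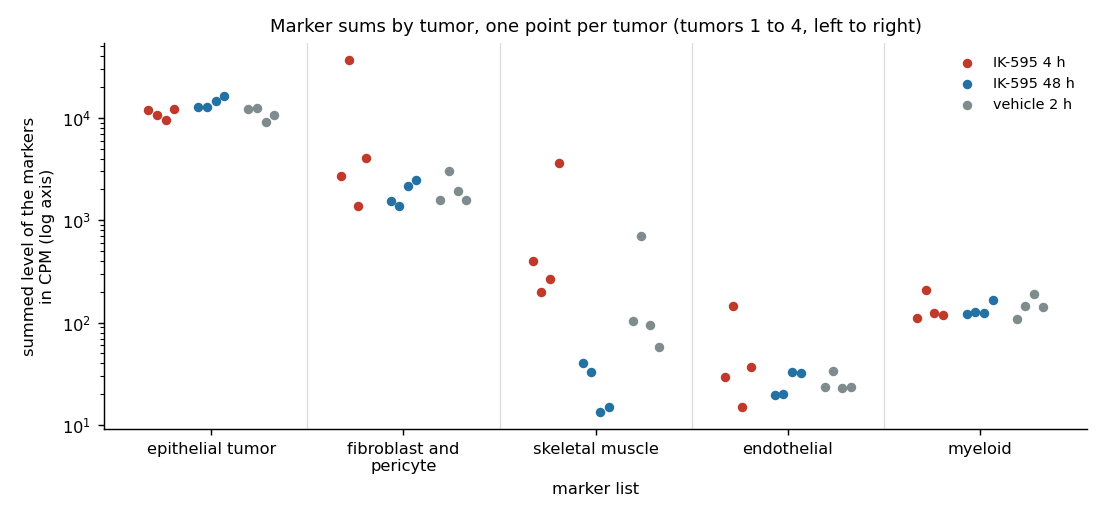
Summed level of each marker list in CPM (log axis), one point per tumor in the IK-595 4 h, IK-595 48 h and vehicle 2 h groups. The second 4 h tumor stands at 36500 CPM of fibroblast and pericyte markers, against 1380 to 2490 CPM at 48 h, and all 4 h tumors lie above all 48 h tumors for skeletal muscle markers.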

How the data were processed

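RNA-seq of AsPC-1 tumors was read from the authors' deposited table of estimated counts and the deposited table of TPM (transcript levels scaled by length and depth), both per gene. Per the labels, polyadenylated RNA was made into NEBNext Ultra II libraries and read in pairs of 150 bases. Per the submitters' processing notes, bcl2fastq 2.17, FastQC 0.12.1, Salmon 0.14.1 and genome build GRCh38.p13 were used. The sources used here do not give their order, the annotation release, the strand setting or whether mouse reads were taken out, so such reads may be counted on human genes.

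The tables hold 60230 gene IDs, of which 60089 took a symbol from the names table and 57972 took GRCh38 coordinates from GENCODE 29, and 11 IDs without a name held 0.0003% of counts. Estimated counts were rounded, and 59.6% of positive values were already whole within 0.0015. No columns of different tumors were identical. Each group of 4 is 4 animals, per the labels.

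All 24 tumors were fitted with edgeR 4.0.16 (R 4.3.3) by its robust quasi-likelihood test, with TMM scaling, filterByExpr and 1 term for each of 6 groups. The contrast was 4 h over 48 h, 2-sided, with Benjamini-Hochberg adjustment over all genes tested and a threshold of 0.05. Levels are TMM-scaled CPM, and log2 CPM used a prior count of 2. At depths of 10.52 to 20.64 M counts the median SE of a log2 fold change was 0.23. On simulated counts for 17243 genes, the test found 84.8% of changes set at 4-fold, 50.7% of those at 2-fold and 10.4% of those at 1.5-fold. Of its 105 calls 7.6% had no change planted. The simulation changed 66 or 67 genes at each size, gave all groups the 48 h level otherwise and held no outlying tumor. In the real comparison 15.7% of genes were called, so these rates need not hold there. Alternatives used DESeq2 1.42.0, limma 3.58.1 on counts and on log2 TPM, other scalings and filters, and each tumor left out.

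The comparison and the 47 lists (889 genes, 804 tested) were chosen with earlier results of these data known. The rule for naming genes took the 10 MAPK score genes and the 12 largest rises and falls that had a mean log2 CPM of at least 3, no overlap between groups and a call also without the second 4 h tumor. It also took up to 5 called genes and the most abundant uncalled gene of each list, and called genes that opposed the ERK lists. Fewer are printed than it allows, and some genes are not reported here. EGR1, FOS, FOSL1, PLK1, KRT19 and the genes named for depending on 1 tumor were chosen after their values were seen. Promoters are from RefSeq on GRCh38.p14, and their motifs were chosen after the promoters were looked at.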

Additional observations from a re-analysis of the deposited data

Results flagged for a closer look

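The values of each printed gene and each marker list were checked within the groups of 4 tumors, on log2 CPM. A tumor is given here when its gap to the nearest of the others was over 0.83 of the range of its group, Dixon's critical value at the 95% level. Of 242 such checks 14 passed, near the share of about 0.05 that chance passes. Some printed genes were chosen for depending on 1 tumor, so the spread of the flags over tumors is a description. Of the 14, 9 were in the second tumor at 4 h, the tumor with the fewest counts and the most fibroblast marker signal.

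The second 4 h tumor was above the other 4 h tumors for several genes that were lower at 4 h than at 48 h. It was at 9.76 CPM for DUSP6, 8.04 CPM for DUSP4, 26.4 CPM for SPRED1, 8.13 CPM for SHB, 8.9 CPM for HS3ST1 and 39.9 CPM for DUSP1, which did not pass between the times. It was also the highest 4 h tumor for CDKN1C at 3.92 CPM. For TNFRSF10B at 97 CPM and BMF at 11.3 CPM it was the lowest 4 h tumor. Whether its host tissue or its depth had a part in these values was not tested.

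The third tumor at 4 h was lowest of its group for CCND1 at 46.1 CPM and highest for SPRY1 at 5.93 CPM and CLDN4 at 395 CPM. The fourth 4 h tumor was highest for KIF11 at 58.8 CPM. At 48 h the third tumor stood above the others for the red blood cell markers, where 1 marker was tested, at a mean log2 CPM of -0.7.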

How the results depend on the processing

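The count of genes higher at 4 h was 1250. It was 2012 by DESeq2, 825 with fibroblast marker content as a covariate, 645 with only the 8 tumors fitted, 665 with no low-count filter, 396 at an adjusted p under 0.01 and 645 at a fold of at least 2. On TPM with limma it was 775 with a pseudocount of 1, 728 with 0.1 and 437 with no filter, where the median of all genes moved to 0.10 and 0.13 with the filter. The count of lower genes, 1620, was 805, 791 and 610 on those TPM settings, 898 at the stricter p and 582 at the fold limit. Leaving out 1 tumor gave 624 to 1753 higher and 1183 to 1531 lower genes. All other settings stayed within 1.5 times of both counts. The cause was not tested. The MAPK score differed by -3.39 to -3.08 on leaving out 1 tumor and by -2.55 on log2(TPM + 1), where the added 1 lowers the change of low genes. EPHA4 turned to -0.94 and COL1A2 to -0.12 with the fibroblast covariate, and EPHA4 ran from -0.59 without the second 4 h tumor to 1.91 without the first 48 h tumor.

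For 110 printed genes, leaving out 1 tumor left 845 of the fitted values on their side of the threshold and ended 33 calls, and the other settings left 1343 and ended 83. The fibroblast covariate ended the calls of PLK1, DTL, RGL1, EREG, MYH7 and ASPN, among others. Replicate numbers did not pair the tumors (r from -0.276 to -0.137 between same-numbered 4 h and 48 h tumors). With the replicate number as a block, 926 genes were higher and 1484 lower. Depth limits genes of a few counts, and the second 4 h tumor most.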
